A study of Saccharomyces cerevisiae CEN.PK113-7D with 6 samples.

Results

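Baker's yeast keeps separate genes that encode forms of the same protein for use with and without oxygen. Such genes and the gene of their repressor, 10 in all, are described here over 6 expression arrays. They are the cytochrome c genes CYC1 and CYC7, the cytochrome c oxidase subunit genes COX5A and COX5B, the ADP/ATP carrier genes PET9 (also called AAC2), AAC1 and AAC3, the eIF5A genes HYP2 and ANB1, and ROX1, the repressor gene of the hypoxic forms. They were chosen by name, with earlier results of these data known. Each of the 10 was matched to 1 probe set by its symbol or alias, out of 5449 Saccharomyces cerevisiae genes measured in all. The arrays compare 3 chemostat samples (replicates 4, 8 and 9) with 3 batch samples (replicates 1, 2 and 3). Both groups are the laboratory strain CEN.PK113-7D, a haploid without auxotrophies, grown on glucose, and no mutation or added agent separates them. A chemostat is fed and drained at a constant rate, so its cells grow in a steady state, whereas a batch culture receives no fresh medium. The labels state neither the oxygen supply nor the dilution rate, nor at which phase of growth batch cells were taken, so "aerobic" and "hypoxic" name the known use of a gene and not a treatment.

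In yeast, oxygen is read largely through heme, whose synthesis needs it. Heme activates the transcription factor Hap1, which switches on genes of respiration and ROX1. The Rox1 protein binds in front of hypoxic genes and recruits the Tup1 and Cyc8 co-repressors. When oxygen and heme run low, Rox1 is lost and the hypoxic forms are made. The Hap2/3/4/5 complex adds a second input, because its activating subunit Hap4 is made mainly when glucose is scarce.

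Each value is the log2 signal of a probe set, and changes are chemostat minus batch with n = 3 arrays per group throughout. The number of arrays limits the precision. Whether replicates were separate cultures is not stated, and p-values then reflect only the spread among these arrays, which may be technical. Medians over all genes ranged from 7.95 to 7.97 on the 6 arrays. Correlations across genes lay between 0.995 and 0.999 among chemostat arrays and between 0.994 and 0.997 among batch arrays, against 0.815 to 0.853 across the groups. The array also holds probe sets for fission yeast (Schizosaccharomyces pombe), whose 95th percentile of 5.93 served as background. All 5 marker genes of mating type a lay above that level on every array, with chemostat means of 7.38 to 9.90 and batch means of 8.94 to 11.18. Of 3 alpha markers, 1 lay above it on every array, with chemostat means of 5.54 to 7.13 and batch means of 5.44 to 6.60 over the 3. Because the RNA came from whole cultures, fewer cells using a gene and less RNA per cell cannot be told apart.

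Of the 10 genes, 6 were higher in chemostat, 2 were lower and 2 did not pass (limma, Benjamini-Hochberg adjusted p under 0.05 over all genes). The higher genes were COX5A, PET9, AAC1, HYP2, CYC7 and ROX1. The lower genes were the hypoxic forms AAC3 and ANB1, and neither CYC1 nor COX5B passed. Changes were common on these arrays, where 33.6% of all genes were called higher, 44.8% lower and 78.4% in either direction. The count over both directions is therefore near the background, and the genes differ in direction and size. Among the 5 aerobic forms, 4 rose, none fell (none at an unadjusted p under 0.05 either) and the median change was 0.41. Among the 4 hypoxic forms, 1 rose, 2 fell and the median was -0.14. The median over the 10 genes was 0.30, against -0.06 over all genes. For 8 of the 10 genes no chemostat array overlapped any batch array, as for 81.7% of all genes. When a change of at least 1.5-fold was required (limma's treat), AAC1 and CYC7 stayed higher and AAC3 stayed lower, where 11% of all genes were higher and 10.4% lower by that rule.

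**Figure D1:**
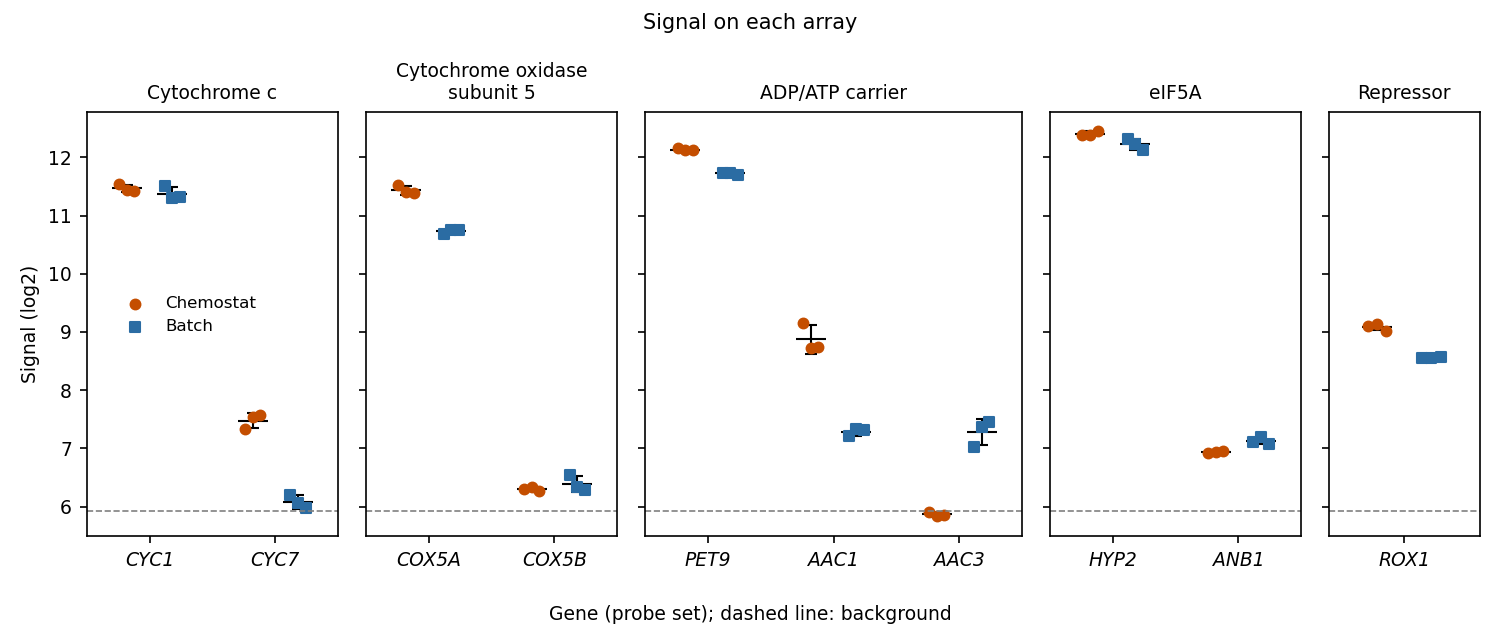
Log2 signal (vertical axis) of the 10 genes on each array, with chemostat as circles to the left of batch as squares; bars are the mean and SD of 3 arrays, and the dashed line is the background of 5.93. AAC1 and CYC7 are above and AAC3 below their batch values in chemostat, where AAC3 lies at background; heights of different genes come from different probe sets and are not comparable.

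Cytochrome c carries electrons between respiratory complexes III and IV, and CYC1 (YJR048W) encodes its main aerobic form. Its signal was 11.54, 11.43 and 11.43 on the chemostat arrays, against 11.51, 11.30 and 11.32 on the batch arrays. The groups overlapped, because batch replicate 1 stood as high as the chemostat arrays. The change was 0.09 (SE 0.064, adjusted p = 0.23) and did not pass. When batch replicate 1 was left out, CYC1 passed at 0.16 (adjusted p = 0.0198), and it also passed after quantile normalization at 0.23 (adjusted p = 0.00709).

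CYC7 (YEL039C) encodes the hypoxic cytochrome c and is also known as a stress-induced gene. It had signals of 7.33, 7.54 and 7.57 in chemostat, against 6.20, 6.06 and 5.98 in batch. Every chemostat array was higher than every batch array, and the batch mean lay only 0.16 above background. CYC7 rose by 1.40 (SE 0.079, adjusted p = 1.02e-06), which is 2.63-fold, and 5.65% of all genes rose more. Signals near the floor of the scale are compressed. With the S. pombe median subtracted from each array, a setting chosen after seeing the data, the rise was 2.19 (SE 0.15), or 4.56-fold. Of both cytochrome c genes, the hypoxic one passed and the aerobic one did not.

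The proteins that work with cytochrome c give the setting for CYC1. Their 6 genes, all measured, had a median change of 0.41, and 4 rose, 1 fell and 1 did not pass. The shares were 66.7% higher and 16.7% lower, against 33.6% and 44.8% of all genes. The number that rose was 3 after quantile normalization, and 3 to 4 with each array left out in turn. Over all 5449 genes it was 1722 and 1660 to 1808 in those settings. CYB2, the lactate dehydrogenase that passes its electrons to cytochrome c, rose by 3.06 (SE 0.14), with means of 10.85 ± 0.052 in chemostat and 7.79 ± 0.34 in batch (SD). CYT1, the cytochrome c1 of complex III, rose by 0.70 (SE 0.044). DLD1, a lactate dehydrogenase for the D form, fell by 0.51 (SE 0.065). The heme lyase gene CYC3, whose product attaches heme to cytochrome c, was at 8.67 ± 0.019 in chemostat and 8.68 ± 0.037 in batch (adjusted p = 0.78).

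Subunit 5 of cytochrome c oxidase, the complex that reduces oxygen, is made from COX5A with oxygen and from COX5B without it. COX5A (YNL052W) had signals of 11.52, 11.41 and 11.38 in chemostat, against 10.69, 10.75 and 10.76 in batch. The groups were well apart, and COX5A rose by 0.70 (SE 0.049, adjusted p = 3.2e-06), or 1.63-fold. Its change lay within the range of the other nuclear subunit genes of the complex. All 7 of those rose, against 33.6% of all genes. Their changes lay between 0.42 for COX8 and 0.79 for COX7, with a median of 0.73. COX9 rose by 0.76 (SE 0.047).

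COX5B (YIL111W) had signals of 6.30, 6.33 and 6.27 in chemostat, against 6.55, 6.33 and 6.29 in batch. The groups overlapped, and apart from batch replicate 1 the arrays lay within a narrow band a little above background. The change was -0.09 (SE 0.068, adjusted p = 0.252) and did not pass. After quantile normalization it passed as lower at -0.27 (adjusted p = 0.00355). Without batch replicate 1 the change was -0.01 (adjusted p = 0.82).

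The ADP/ATP carriers of the inner mitochondrial membrane exchange ATP made in the mitochondrion for cytosolic ADP. PET9 (YBL030C) encodes the major one. Its signal was 12.15, 12.12 and 12.13 in chemostat, against 11.73, 11.74 and 11.70 in batch. Replicates differed little, with SDs of 0.018 and 0.023, and the groups were apart. PET9 rose by 0.41 (SE 0.037, adjusted p = 1.38e-05), or 1.33-fold.

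AAC1 (YMR056C), a minor carrier gene used under aerobic conditions, had signals of 9.15, 8.72 and 8.74 in chemostat, against 7.21, 7.33 and 7.32 in batch. All chemostat arrays were far above the batch arrays, with chemostat replicate 4 exceeding the mean of the other chemostat arrays by 0.42. AAC1 rose by 1.58 (SE 0.11, adjusted p = 3.23e-06), the largest rise of the 10 genes as deposited. Only 4.99% of all genes rose more. Without chemostat replicate 4 the rise was 1.44.

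AAC3 (YBR085W), the hypoxic carrier gene, moved the opposite way. It had signals of 5.91, 5.83 and 5.86 in chemostat, against 7.03, 7.37 and 7.45 in batch. All 3 chemostat arrays lay below background and all 3 batch arrays above it. AAC3 fell by 1.41 on the log2 scale (SE 0.10, adjusted p = 3.56e-06). Set against background on the chemostat arrays, AAC3 was at least 2.56-fold lower there, and the fitted change may understate the fall. The dimmest batch array was replicate 1, at -0.38 relative to the mean of replicates 2 and 3, and without it the change was -1.54.

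Genes that work with the carriers rose for the most part. Their median change was 0.56, with 4 of 5 higher (80%, against 33.6% of all genes) and 1 that did not pass. PIC2, a mitochondrial carrier of copper and phosphate, rose by 0.65 (SE 0.070), and ATP2, the beta subunit of ATP synthase, rose by 0.59 (SE 0.079). SAL1, an ATP-Mg/phosphate carrier, was at 7.28 ± 0.036 in chemostat and 7.26 ± 0.052 in batch (adjusted p = 0.634).

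The translation factor eIF5A, which helps the ribosome through difficult stretches of peptide, is encoded by HYP2 with oxygen and by ANB1 without it. HYP2 (YEL034W) had signals of 12.38, 12.39 and 12.46 in chemostat, against 12.32, 12.23 and 12.13 in batch. The groups did not overlap but lay close together. HYP2 rose by 0.18 (SE 0.055, adjusted p = 0.0151), or 1.13-fold. Without chemostat replicate 9 the call ended at 0.16 (adjusted p = 0.0557).

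ANB1 (YJR047C) had signals of 6.93, 6.94 and 6.96 in chemostat, against 7.11, 7.20 and 7.08 in batch. The chemostat arrays all lay just below the batch arrays, and all lay above background. ANB1 fell by 0.19 on the log2 scale (SE 0.044, adjusted p = 0.00404). A larger fall was seen for 39.9% of all genes. The probe sets of ANB1 and HYP2, like those of the other 8 genes, carry no suffix for shared or cross-hybridising probes. How far each responds to the transcript of the sister gene was not tested.

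Genes that make eIF5A active fell for the most part. eIF5A carries hypusine, an amino acid built from spermidine by DYS1 (deoxyhypusine synthase) and LIA1 (deoxyhypusine hydroxylase, which needs oxygen). DYS1 fell by 2.03 (SE 0.047, adjusted p = 9.24e-09), with means of 8.39 ± 0.025 in chemostat and 10.42 ± 0.072 in batch. LIA1 fell by 1.05 (SE 0.050, adjusted p = 4.32e-07). Of the 5 genes listed as partners, 4 fell and 1 rose, with a median of -0.54, where 44.8% of all genes fell and 33.6% rose. The 1 that rose was SPE1, the ornithine decarboxylase gene, at 0.17 (SE 0.065, adjusted p = 0.0368), whose groups overlapped. It did not pass without chemostat replicate 8 (adjusted p = 0.129), without chemostat replicate 9 (adjusted p = 0.103), without batch replicate 1 (adjusted p = 0.0963) or without batch replicate 2 (adjusted p = 0.119).

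**Figure D2:**
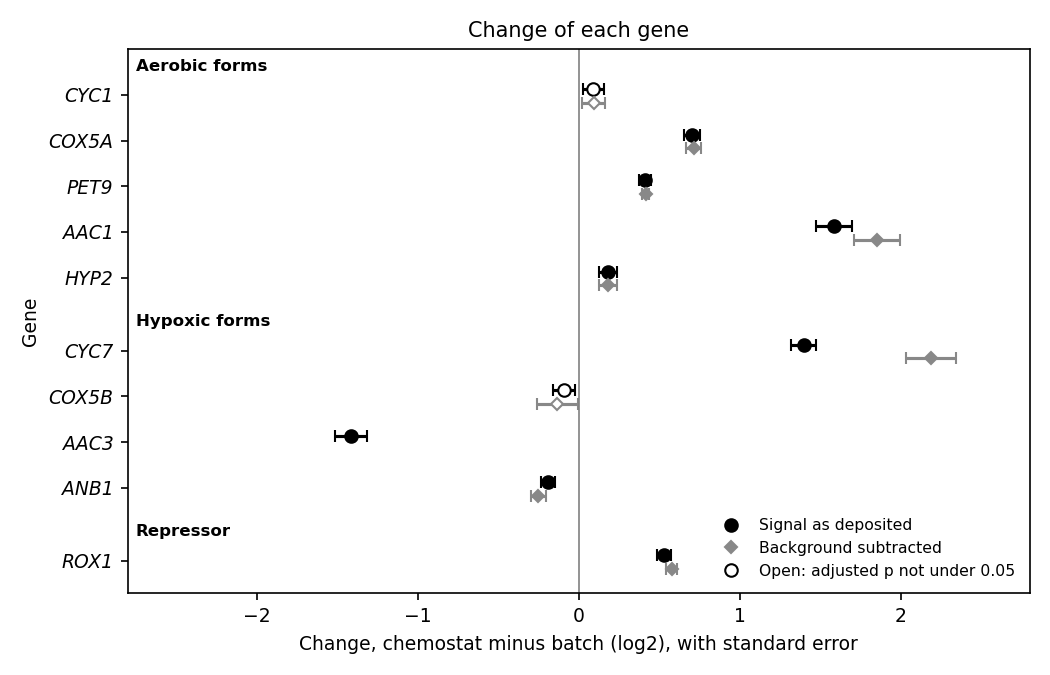
Change of each gene, chemostat minus batch, in log2 units (horizontal axis) with limma's standard error; black circles are values as deposited, grey diamonds those with the S. pombe median subtracted, and open symbols did not pass. Subtraction gives the dim gene CYC7 a change of 2.19, against 1.40 as deposited, and leaves the bright genes nearly in place; AAC3, at background in chemostat, is shown as deposited only.

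The repressor gene ROX1 (YPR065W) had signals of 9.10, 9.13 and 9.02 in chemostat, against 8.56, 8.55 and 8.57 in batch. The groups were clearly apart, and the batch arrays were the tightest of any of the 10 genes, with an SD of 0.0088. ROX1 rose by 0.53 (SE 0.042, adjusted p = 6.62e-06), or 1.44-fold, and 15.3% of all genes rose more. The array measures ROX1 transcript and not Rox1 protein.

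Listed regulators of the response to oxygen, heme and sterols rose or did not pass. Of 13 measured, 8 rose (61.5%, against 33.6% of all genes) and 5 did not pass by limma, with a median change of 0.24. None was called lower, against 44.8% of all genes, and 1 (TUP1) was lower at an unadjusted p under 0.05. HAP4 rose by 1.02 (SE 0.11, adjusted p = 4.07e-05), with means of 9.64 ± 0.15 in chemostat and 8.62 ± 0.20 in batch. MGA2, a membrane-bound activator of the fatty acid desaturase gene OLE1, rose by 0.93 (SE 0.085). HAP1 rose by 0.76 (SE 0.039, adjusted p = 5.89e-07), with means of 8.33 ± 0.039 in chemostat and 7.57 ± 0.0087 in batch. Of the DNA-binding subunits, HAP2 and HAP5 rose by 0.33 (SE 0.054) and 0.24 (SE 0.049), while HAP3 was at 7.55 ± 0.11 in chemostat and 7.51 ± 0.0088 in batch (adjusted p = 0.513).

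The sterol regulators divided. ECM22 rose by 0.37 (SE 0.041), whereas UPC2, its paralog and an activator of hypoxic cell wall genes, was at 6.90 ± 0.060 in chemostat and 6.88 ± 0.068 in batch (adjusted p = 0.77). SPT23, the paralog of MGA2, rose by 0.26 (SE 0.062), and IXR1, a regulator of hypoxic genes including COX5B, rose by 0.16 (SE 0.046). The co-repressor genes did not pass, with changes of -0.15 for TUP1 (adjusted p = 0.0519) and -0.08 for CYC8 (adjusted p = 0.0943). MOT3, a DNA-binding repressor of hypoxic genes, changed by -0.09 (adjusted p = 0.156). TUP1 passed as lower without chemostat replicate 9 (-0.22, adjusted p = 0.00579) and with a trended and robust variance on all arrays (-0.15, adjusted p = 0.0466).

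Hypoxic genes outside the pairs moved about as all genes did. All 17 listed genes were measured. Their median change was -0.10, and 8 fell, 5 rose and 4 did not pass. The shares were 47.1% lower and 29.4% higher, near the 44.8% and 33.6% of all genes. TIR3, a cell wall mannoprotein gene, fell by 1.67 (SE 0.079), with means of 6.72 ± 0.048 in chemostat and 8.39 ± 0.17 in batch. HEM13, the heme synthesis gene that is a classic target of Rox1, fell by 0.64 (SE 0.076), with means of 7.79 ± 0.036 in chemostat and 8.43 ± 0.16 in batch. OLE1 rose by 1.05 (SE 0.095), and DAN4, another mannoprotein gene, rose by 0.92 (SE 0.042). The batch mean of DAN4 lay only 0.27 above background, where signals are compressed, and with background subtracted its change was 1.47. PAU23 and PAU24, listed under their older names DAN2 and DAN3, belong to a family of near-identical genes, and the probe set of PAU24 carries the suffix for shared probes. The 2 probe sets of PAU23 disagreed: the brighter one fell by 0.24 and their mean changed by 0.11 (adjusted p = 0.123).

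Heme synthesis genes went both ways, with 3 of 8 higher (37.5%) and 5 lower (62.5%) and a median of -0.22. The share higher was near the 33.6% of all genes, and 44.8% of all genes were lower. HEM3 fell by 0.70 (SE 0.047) and HEM12 fell by 0.68 (SE 0.049). HEM1, the first enzyme of the pathway, rose by 0.31 (SE 0.085), and HEM14, protoporphyrinogen oxidase, rose by 0.27 (SE 0.051).

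**Figure D3:**
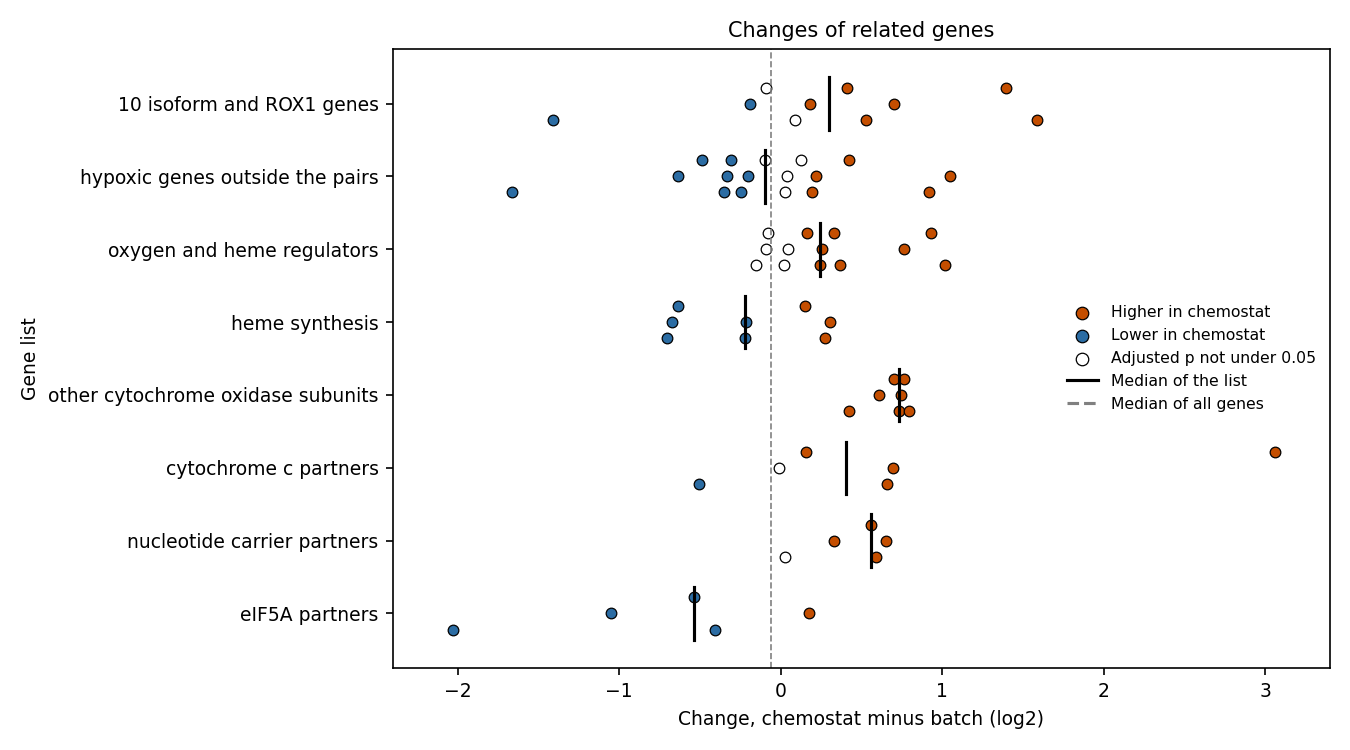
Change of each gene, chemostat minus batch, in log2 units (horizontal axis) for the 10 genes and 7 lists of related genes; each point is a gene, black bars are list medians and the dashed line is the median of all genes (-0.06). All 7 other cytochrome oxidase subunits lie to the right, 4 of 5 eIF5A partners lie to the left, and the hypoxic genes spread to both sides.

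Within each pair, the difference between the signals of both genes was taken on each array and then compared between the groups. Such a difference shows unequal change and not which gene is more abundant, because the probe sets differ. In all 6 combinations tested the chemostat arrays lay wholly to one side of the batch arrays. Taken singly, 81.7% of all genes did so, and the share among other pairs of genes was not computed. The combinations of carrier genes share members, so they are not independent. Each of the 6 gave a two-sided exact permutation p of 0.1. That is the smallest that 3 against 3 arrays allow, so no combination could pass 0.05.

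For cytochrome c, CYC7 minus CYC1 was -4.20, -3.90 and -3.86 on the chemostat arrays, against -5.31, -5.23 and -5.34 on the batch arrays. The balance moved towards the hypoxic form by 1.31 (SE 0.11), or 2.47-fold. Because CYC7 lay near background in batch, this difference may understate the shift. In the other families the balance moved the opposite way. COX5B minus COX5A was -5.22, -5.08 and -5.11 in chemostat, against -4.14, -4.42 and -4.47 in batch, a difference of -0.79 (SE 0.11). In it COX5A passed on its own and COX5B did not, but COX5B lay near background in both groups, where signals are compressed. ANB1 minus HYP2 was -5.45, -5.45 and -5.49 in chemostat, against -5.20, -5.03 and -5.05 in batch, a difference of -0.37 (SE 0.057) to which both genes contributed.

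The 3 carrier genes gave the widest shifts. AAC3 minus PET9 was -6.24, -6.29 and -6.26 in chemostat, against -4.71, -4.37 and -4.24 in batch, a difference of -1.82 (SE 0.14). AAC1 minus PET9 was -3.00, -3.40 and -3.39 in chemostat, against -4.52, -4.40 and -4.38 in batch, a difference of 1.17 (SE 0.14). Both minor carriers thus changed more than PET9, in opposite directions. AAC3 minus AAC1 was -3.24, -2.89 and -2.88 in chemostat, against -0.18, 0.03 and 0.14 in batch, a difference of -3.00 (SE 0.15). Since AAC3 was at background in chemostat, both differences that hold it may understate the shift.

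**Figure D4:**
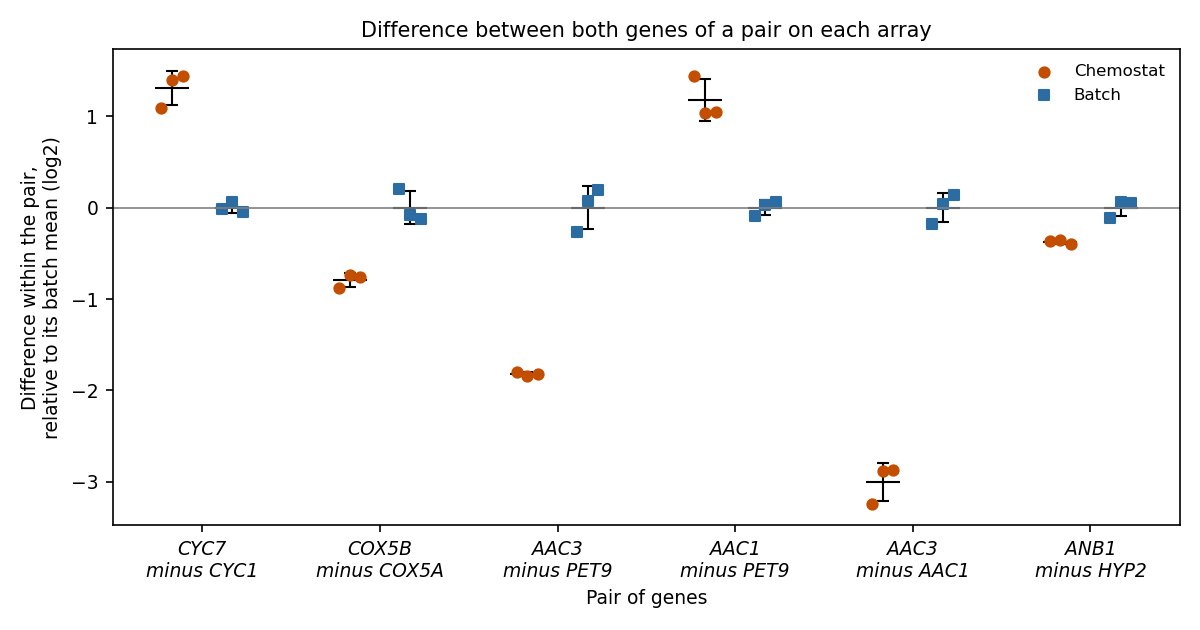
Difference between both genes of a pair on each array (vertical axis, log2 units, relative to the batch mean of the pair), with chemostat as circles to the left of batch as squares; bars are the mean and SD of 3 arrays. CYC7 minus CYC1 and AAC1 minus PET9 lie above batch in chemostat by 1.31 and 1.17, and the other 4 differences lie below it, AAC3 minus AAC1 most, by -3.00.

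Gene order ties 2 of the pairs together. In the gene table of assembly R64, CYC1 and ANB1 are direct neighbours with 0 protein-coding genes between them, and CYC7 and HYP2 lie near each other with 4 between. Each cluster thus joins a cytochrome c gene to an eIF5A gene, and in each the aerobic form of 1 protein lies beside or near the hypoxic form of the other. The neighbours CYC1 and ANB1 changed by 0.09 and -0.19. CYC7 and HYP2 changed by 1.40 and 0.18.

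The genes with the most similar profiles were found by the Euclidean distance between log2 signals over the 6 arrays, each gene centred on its own mean. With 2 groups of arrays this mainly finds genes with a like change, and it says nothing of shared function. CYC7 lay closest to SRX1 (distance 0.112), which encodes the antioxidant enzyme sulfiredoxin and changed by 1.43. AAC3 lay closest to SRY1 (0.158), an enzyme that degrades 3-hydroxyaspartate, which changed by -1.39. AAC1, whose chemostat replicate 4 stood apart, had no gene nearer than YHR033W (0.255), which changed by 1.65. ROX1 lay closest to CDC34 (0.0425), a ubiquitin-conjugating enzyme of the cell cycle, PET9 to SPP2 (0.0346), a splicing factor, and COX5A to SDS23 (0.0669). The closest genes were NKP1 for HYP2 (0.0529), YPT6 for ANB1 (0.0385), ATG5 for CYC1 (0.0622) and YCL049C for COX5B (0.0748).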

How the data were processed

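Each array has 1 deposited log2 signal per probe set, summarised by the authors with PLIER, per the submitters' processing notes. The sources used here give no version, background step or between-array scaling, and no slide or scan date. That the base is 2 was inferred from the range of 4.95 to 13.3. Values were used as deposited. Of 10928 probe sets, the platform annotation gives 1 symbol for 7244, several for 1 and none for 3683. Of the probe sets, 5498 matched 5449 S. cerevisiae genes in the gene table of assembly R64. The brightest probe set stood for a gene. S. pombe was assigned to 1746 probe sets whose gene lay outside that table and had a lower-case symbol, and the 95th percentile of their values over the 6 arrays stood for background, in the absence of detection calls.

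The groups were compared, as chemostat minus batch and without covariates, with lmFit and two-sided eBayes of limma 3.58.1 (R 4.3.3), and p-values were adjusted by the method of Benjamini and Hochberg over all genes. Errors of changes are standard errors from limma, errors of group means are SDs, and standard errors of pair differences come from the SDs of 3 arrays per group. Lists were counted and not tested as sets. The method was tested on simulated data of 5449 genes, with 50 genes shifted at each size. It recovered 62% of shifts of 0.25, 94% of shifts of 0.5 and 100% of shifts of 1 or 2. Of 190 calls, 12 were false. Far fewer genes were shifted there than were called on the arrays. Shifts as small as the changes of HYP2, ANB1, CYC1 and COX5B were not simulated. That CYC1 and COX5B did not pass therefore does not show that they were unchanged. The text names the 10 genes, the called genes with the largest rises and falls of each list, all listed regulators and the closest profile of each gene; other names (CYC3, SAL1, COX8, TIR4, PAU23 and PAU24) were chosen after their values were seen. The members and lists were chosen with earlier results of these data known. Alternatives were quantile normalization, centring on the gene or S. pombe median, removal of dim genes, trended and robust variance, averaged probe sets, all probe sets tested, a threshold of 0.01, treat at 1.5-fold and each array left out. Background subtraction (linear signal minus the S. pombe median, floor of 8) and 2 arrays per group were added after seeing the data.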

Additional observations from a re-analysis of the deposited data

How the results depend on the processing

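Over 17 alternatives, none of the 10 genes changed direction. Direction could turn only where the signals or the arrays used were altered. The threshold of 0.01, treat, removal of dim genes, the trended and robust variance and both probe set alternatives left each change as it was. Of 170 values, 159 kept their side of the threshold, 7 no longer passed and 4 newly passed. Of the 7, 5 arose when a 1.5-fold change was required. That rule left 2 of the 10 genes higher and 1 lower, and 9 of the 60 listed genes higher and 3 lower. Of all 5449 genes, it left 601 (11%) higher and 564 (10.4%) lower. Fewer calls follow from that rule itself. The rest of the 7 were HYP2 at a threshold of 0.01 and without chemostat replicate 9. CYC1 newly passed without batch replicate 1, after quantile normalization and with 2 arrays per group (0.12, adjusted p = 0.0284), and COX5B after quantile normalization. With each array left out in turn, 5 to 7 of the 10 genes were higher and 2 lower. Over all 5449 genes, 1660 to 1808 were then higher and 2280 to 2438 lower. All 6 pair differences kept their direction under the 12 alternatives run for them, including background subtraction, where CYC7 minus CYC1 was 2.10. Both centrings cancel within an array, and each of the 10 genes has 1 probe set. Centring and averaging of probe sets therefore could not change a pair difference. Of 1020 values of the 60 listed genes, 961 kept their side of the threshold, 54 no longer passed and 3 newly passed. The other 2 changed direction, with a pass before or after. These were TIR4, at -0.11 after quantile normalization (0.04 as deposited), and PAU23, at 0.11 with averaged probe sets. The cause was not tested for TIR4. Listed genes that passed in neither setting also turned and count among the 961. An example is UPC2, at -0.13 after quantile normalization (0.02 as deposited). No paired analysis was possible because the groups share no replicate number. The planned pseudocounts were not run, since they apply to linear values only. Among the 10 genes, dim signals limit COX5B, AAC3 and CYC7, which lie near background in 1 or both groups. The same holds for the listed genes DAN4, TIR4 and PAU24.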
